A study of Mactra quadrangularis with 9 samples.

Results

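The genes described here encode the proteins of the cytosolic ribosome in gill of a surf clam, Mactra quadrangularis (Mactra veneriformis in the series text). A gene was taken when its description in the deposited table named a ribosomal protein L or S with a number, or an acidic ribosomal protein, with mitochondrial, 39S, 28S and kinase entries left out, and when its mean over all libraries was at least 1 FPKM (fragments scaled to transcript length and library depth, a level per length). This gave 62 of the 24722 genes in the table, 26 of the small subunit and 36 of the large subunit. All 62 genes that matched by description passed the level minimum. The one nearest to it was L55, with a mean of 7.15 FPKM. The 62 genes carry 59 protein names, because S6, L27 and S11 each have 2 genes.

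Clams were held for 24 h in seawater with 7.5 mg/L dissolved oxygen (the control), 4 mg/L or 2 mg/L, and gill messenger RNA was sequenced in 3 libraries per oxygen level, 9 in all. The clams of all groups were unfed, and hypoxia was made by bubbling nitrogen through the water. The labels say neither how many clams a library holds nor that libraries of a group are separate clams, so p-values measure only the spread from library to library, which may be technical. The tests below ask which ribosomal protein genes differed between oxygen levels. Both low oxygen levels were compared with the same 3 control libraries, so those comparisons are not independent of each other.

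Each ribosome has a small subunit, which decodes the messenger RNA, and a large subunit, which joins amino acids into protein. Every ribosome holds about the same set of proteins, and cells keep their supply in balance. In mammals, the messenger RNAs of ribosomal proteins start with a run of pyrimidines, the terminal oligopyrimidine motif, through which the TOR kinase and the RNA-binding protein LARP1 control their translation and stability. Bivalve gill is a ciliated epithelium that moves water for feeding and gas exchange.

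Library totals ran from 26994566 to 32246147 counts, and between 20316 and 20958 genes had a count. The 78 cilia genes on the marker list, which mark gill epithelium, all had counts in every group, with summed levels of 9409 to 9473 CPM at 7.5 mg/L, 8208 to 8296 CPM at 4 mg/L and 8600 to 8641 CPM at 2 mg/L. CPM here are counts scaled to a common depth after scaling by the trimmed mean of M-values (TMM). The 22 hemocyte genes summed to 1108 to 1125, 2253 to 2315 and 3984 to 4104 CPM in the same order of groups. The 23 muscle genes summed to 3269 to 3368, 3104 to 3344 and 10160 to 12531 CPM. The 29 digestive gland genes summed to 2655 to 2712, 2810 to 2871 and 2452 to 2507 CPM, and the 10 mantle and shell genes to 200 to 214, 125 to 134 and 216 to 237 CPM. The 47 neuron genes summed to 503 to 545 CPM and the 4 gonad genes to 91.7 to 125 CPM over all libraries. Of the hemocyte genes, 1 C-type lectin had no count in any control library and 3 had none at 2 mg/L. One striated muscle myosin heavy chain, 2 digestive gland genes (an alpha-amylase and a pancreatic lipase), 1 perlucin and 1 neuronal acetylcholine receptor were also at 0 at 2 mg/L, and another of these receptors was at 0 in the control. Sums did not always follow the single genes in the test described below. The mantle and shell sum was lowest at 4 mg/L. Yet 5 of these genes were called higher and 3 lower there than in the control (median log2 change 0.24). Their sum was highest at 2 mg/L, where 4 were called higher and 4 lower (median -0.25). In the cilia, hemocyte and digestive gland lists, more calls against the control went with the sum than against it. Summed levels of the cilia, hemocyte, digestive gland and mantle and shell markers did not overlap between any groups, and those of muscle were far higher at 2 mg/L. Their part in the results below was not tested. In bulk tissue, fewer cells of a type and less RNA per cell cannot be told apart.

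The ribosomal protein genes were among the most abundant messages of the gill. Their mean level ran from 7.15 FPKM for L55 to 2717 FPKM for L19, a protein of the large subunit that reaches across to the small one, with a median of 1056 FPKM. Of the 62 genes, 60 lay above the 95th percentile of the 15397 genes tested and 41 above the 99th. After L19, the highest were L7a at 2549, S8 at 2391, L5 at 2348, L13a at 2274 and L6 at 2229 FPKM. The steps between these neighbours in the order were small: over the 3 control libraries L5 had 2761 ± 13.2 and L13a 2741 ± 90.5 FPKM (mean ± SD, n = 3).

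Of all counts in each control library, the 62 genes together took 6.58%, 6.56% and 6.85%. At 4 mg/L they took 4.70%, 4.74% and 4.85%, and at 2 mg/L 4.93%, 5.17% and 5.06%. The libraries of each group lay close together and no group overlapped another. The share was lowest at 4 mg/L, the milder of both hypoxic levels, and only slightly higher at 2 mg/L. As group means these shares were 6.66% ± 0.165, 4.76% ± 0.0820 and 5.05% ± 0.118 (SD, n = 3). On the FPKM scale the share was 13.4% ± 0.292, 10.6% ± 0.145 and 11.1% ± 0.199. The 62 genes summed to 62909 ± 1729, 47256 ± 1393 and 54860 ± 1600 TMM-scaled CPM. The gap between 4 and 2 mg/L was wider on this scale than in the share of counts. TMM factors, by which the scaled values are divided, were 1.06 to 1.07 for the control, 1.00 to 1.02 at 4 mg/L and 0.918 to 0.935 at 2 mg/L.

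**Figure D1:**
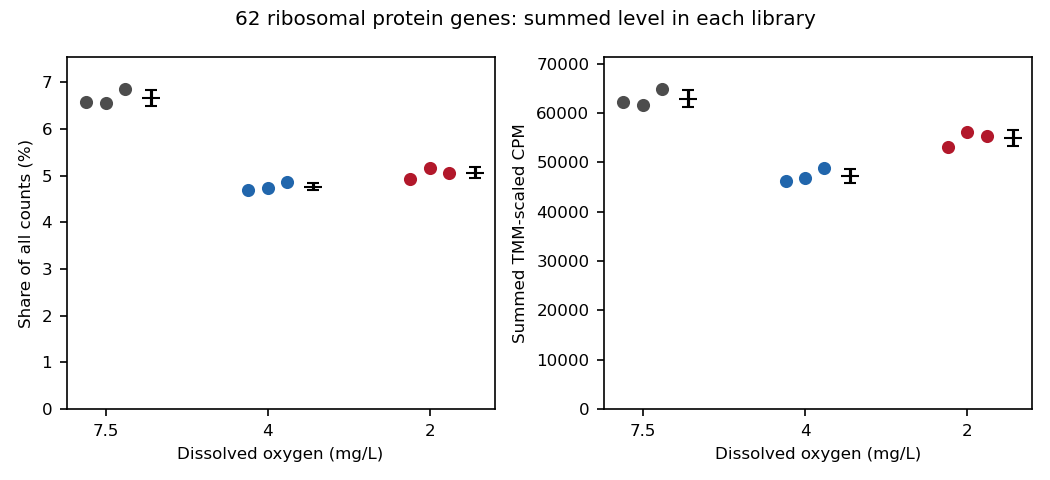
Summed level of the 62 ribosomal protein genes in each of the 9 libraries against dissolved oxygen in mg/L, as a percentage of all counts (left) and as summed TMM-scaled CPM (right). Points are libraries, and the bar beside them is the mean ± SD of 3. The 3 libraries at 4 mg/L, between 4.70% and 4.85% of counts, lie below all the others on both scales.

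At 4 mg/L oxygen nearly the whole set was lower than in the control. Of the 62 genes, 57 fell, 1 rose (a copy of S6) and 4 did not pass the test (edgeR's quasi-likelihood test, Benjamini-Hochberg adjusted p under 0.05 over the 15397 genes tested). Of all genes tested, 34.5% were called lower and 35.4% higher, 69.9% in all. The changes were small: the median log2 change was -0.39, or 23.7% less, against a median of -0.0047 for all genes. Fitted changes ran from -0.95 to 1.04 on the log2 scale. The spread among the members was narrow, with an interquartile range of 0.175 against 1.28 for all genes, and 48 of the 62 were within 0.2 of their median. In 55 genes all 3 libraries at 4 mg/L were below all 3 control libraries and in 1 they were all above, against 36.9% and 37.4% of genes tested. Within a group the members varied little: the median coefficient of variation was 5.50% in the control, 4.54% at 4 mg/L and 3.81% at 2 mg/L.

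At 2 mg/L the set was lower than in the control by less. Of the 62 genes, 40 fell, 4 rose and 18 did not pass, where 32.0% of all genes tested were called lower and 31.5% higher, 63.5% in all. The median log2 change was -0.17, or 10.8% less, against -0.03 for all genes. The groups did not overlap in 37 genes that were lower and in 2 that were higher, against 34.8% and 33.5% of genes tested. This comparison depended on scaling. With scaling by total counts alone, which lowered the median of all genes by 0.20 in this comparison, the median of the members was -0.37, 54 genes were called lower, 1 was called higher and 7 did not pass. The same scaling turned the split of all calls from 4924 lower and 4847 higher to 6621 and 3709. Relative to the median of all genes, the members stood at -0.13 under either scaling. A change of scaling moves every gene by nearly the same amount, so this relative value cannot tell which scaling is right. The count of 4 that rose fell to 1 without control replicate 2 or without replicate 2 at 2 mg/L, and to 2 without control replicate 1 or without replicate 3 at 2 mg/L.

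Compared directly, the ribosomal protein genes were higher at 2 than at 4 mg/L. Of the 62, 49 were called higher, 0 lower and 13 did not pass, against 31.6% of all genes called higher and 32.1% lower, 63.7% in all. The median log2 difference was 0.24, or 18.4% more, against -0.02 for all genes. In 47 genes every library at 2 mg/L lay above every library at 4 mg/L, against 33.5% of genes tested, and in 0 genes below, against 34.5%. With total-count scaling, which lowered the median of all genes by 0.13, 31 genes were called higher and 2 lower, L4 and the S6 gene that had risen at 4 mg/L, and the median was 0.11. Relative to the median of all genes the members stood at 0.27 under either scaling, a value that again cannot test the scaling. For 4 against 7.5 mg/L that relative value was -0.39 under either, and no call was lost with total counts.

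A test for any difference among the 3 groups called 59 of the 62 genes, against 84.3% of genes tested. The order of the 3 group means was alike in most members. The mean was lowest at 4 mg/L in 57 of the 62 genes, 91.9%, as in 34.6% of genes tested. It rose from 4 to 2 to 7.5 mg/L in 50 genes, 80.6%, against 19.9% of genes tested. It was highest at 7.5 mg/L in 52, at 2 mg/L in 9 and at 4 mg/L in 1, against 35.5%, 28.7% and 35.8% of genes tested. The 3 tests use the same libraries as these means. By their calls, 31 genes fell at both hypoxic levels and were higher at 2 than at 4 mg/L. Another 15 fell at 4 mg/L, did not pass at 2 mg/L and were higher at 2 than at 4 mg/L. A further 9 fell at both with no call between them. How many of all genes tested have each of these patterns was not counted. L34, L36 and L55 were called in none of the comparisons. Across the 62 genes the change at 4 mg/L and the mean FPKM level had a Spearman correlation of -0.26, and at 2 mg/L of -0.38, over points that share the same 9 libraries.

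**Figure D2:**
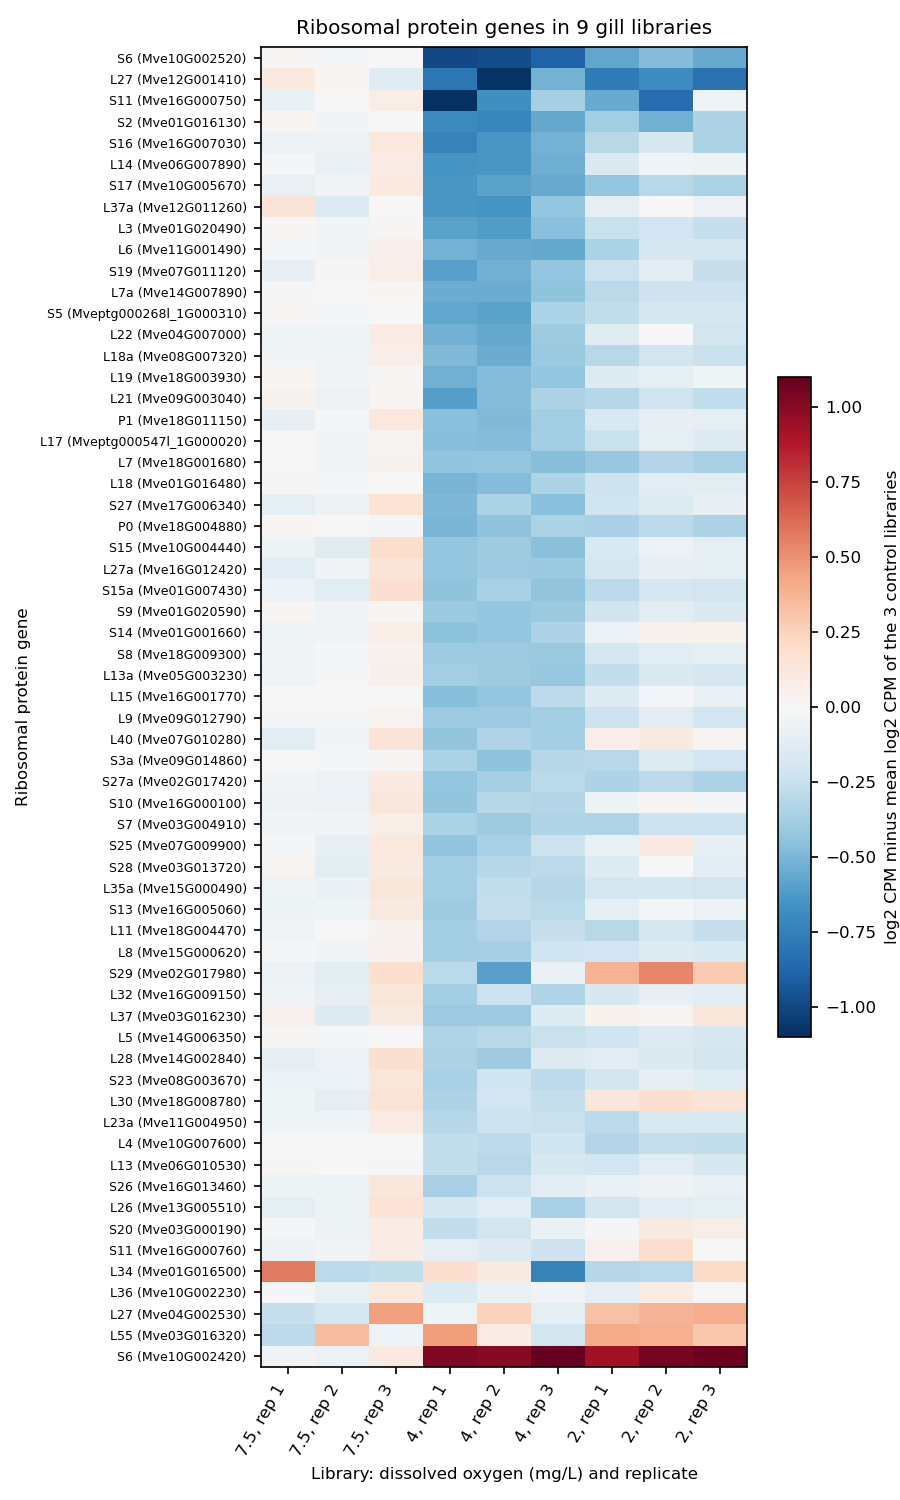
Level of each of the 62 ribosomal protein genes in each library, as log2 CPM minus the mean log2 CPM of the 3 control libraries, ordered by the change at 4 mg/L. Blue is below and red above the control mean. Most rows are bluest in the 3 columns at 4 mg/L and paler at 2 mg/L, and 1 S6 gene at the bottom is red in all 6 hypoxic libraries.

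In the small subunit 25 of 26 genes fell and 1 rose at 4 mg/L, with a median log2 change of -0.38. At 2 mg/L 15 fell and 2 rose, with a median of -0.15, and 23 were higher at 2 than at 4 mg/L. In the large subunit 32 of 36 fell and 0 rose at 4 mg/L, with a median of -0.39. At 2 mg/L 25 fell and 2 rose, with a median of -0.17, and 26 were higher at 2 than at 4 mg/L. Of all genes tested, 34.5% fell and 35.4% rose at 4 mg/L, and 32.0% fell and 31.5% rose at 2 mg/L. Between the hypoxic levels, 31.6% of all genes were higher and 32.1% lower at 2 mg/L. The summed CPM of the small subunit relative to the large was 0.532 ± 0.00775 in the control, 0.519 ± 0.000721 at 4 mg/L and 0.533 ± 0.00153 at 2 mg/L (SD, n = 3).

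**Figure D3:**
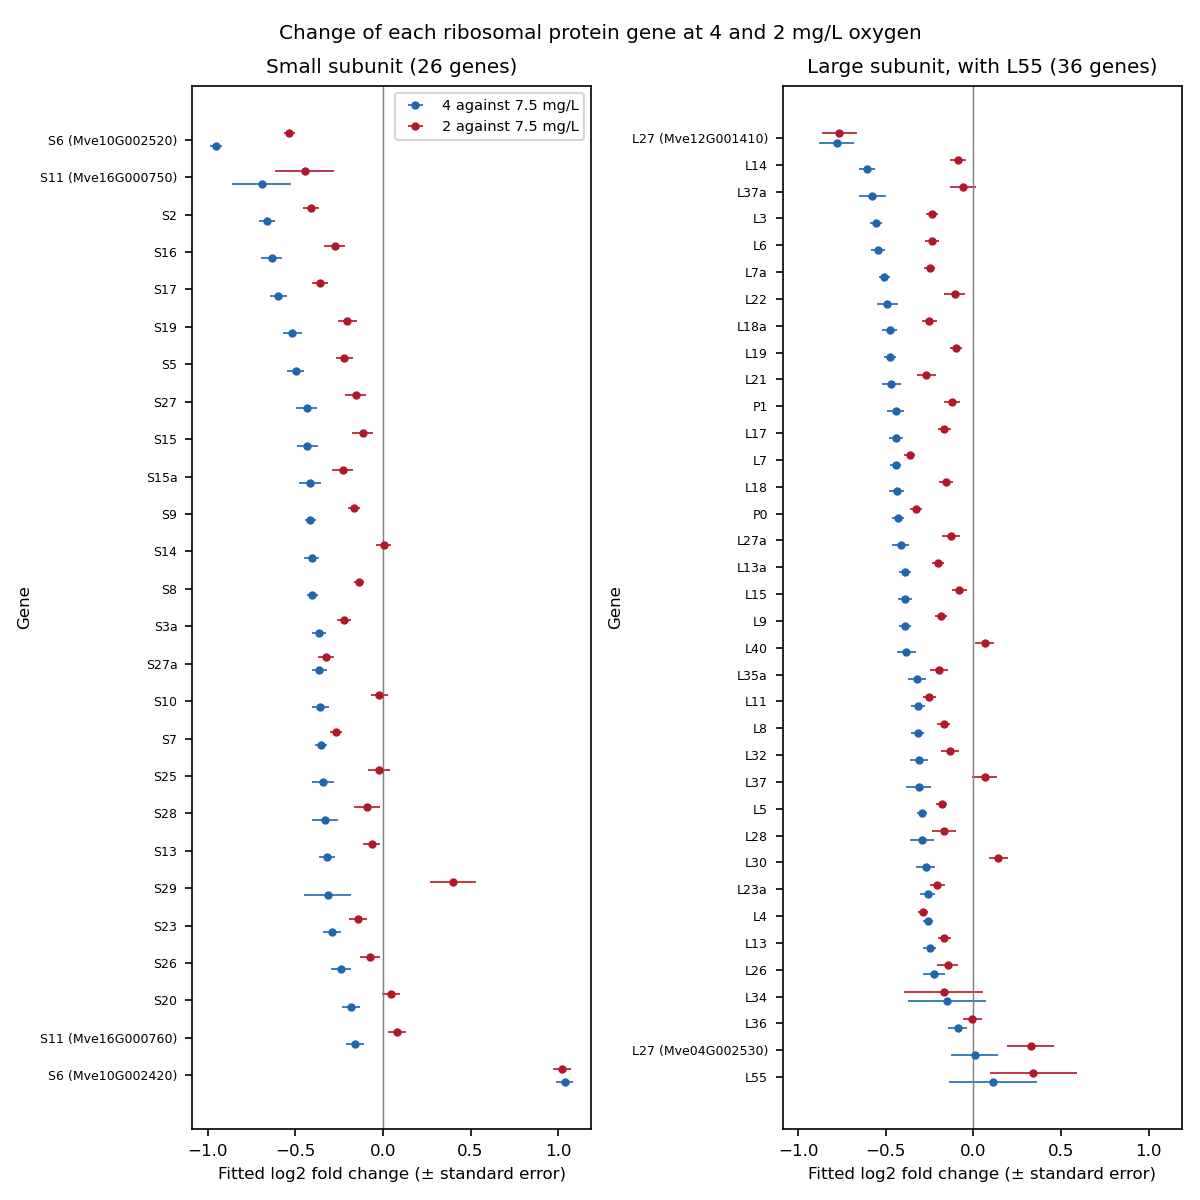
Fitted log2 fold change ± standard error of each small subunit gene (left) and large subunit gene (right) at 4 mg/L (blue) and 2 mg/L (red) against 7.5 mg/L. Nearly all blue points lie left of 0 with a median of -0.39. Most red points lie between them and 0, and an S6 gene stands alone near 1.04 and 1.02.

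Among small subunit genes present once in the table, S2, which lies near the site where messenger RNA enters the ribosome, fell most at 4 mg/L. S2 (Mve01G016130, chromosome 1, 52560137 to 52564183) was at 2518, 2436 and 2498 CPM in the control, at 1527, 1509 and 1677 CPM at 4 mg/L, and at 1906, 1721 and 1969 CPM at 2 mg/L. The 3 groups did not overlap, with 4 mg/L lowest. The log2 change was -0.66 (SE 0.05, adjusted p = 1.22e-09) at 4 mg/L and -0.41 (SE 0.05, adjusted p = 6.27e-07) at 2 mg/L, by edgeR's quasi-likelihood test with Benjamini-Hochberg adjustment, and 2 mg/L exceeded 4 mg/L by 0.25. S16, S17, S19 and S5 came next at 4 mg/L, with log2 changes of -0.63, -0.60, -0.52 and -0.50.

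S8 (Mve18G009300, chromosome 18, 26330586 to 26343801), the most abundant small subunit gene, moved like the median of the set. It was at 2067, 2100 and 2175 CPM in the control, 1598, 1604 and 1593 CPM at 4 mg/L, and 1854, 1948 and 1966 CPM at 2 mg/L. The groups were well apart, in the order 4, 2, 7.5 mg/L, with log2 changes of -0.40 at 4 mg/L and -0.14 at 2 mg/L. S15, a protein of the head of the small subunit, was at 743, 702 and 880 CPM in the control, 573, 588 and 563 CPM at 4 mg/L and 686, 737 and 722 CPM at 2 mg/L. It fell at 4 mg/L by 0.43 on the log2 scale, while its libraries at 2 mg/L overlapped the control and the change of -0.12 did not pass with TMM (-0.32, called, with total-count scaling). S27, a zinc finger protein, fell by 0.44 at 4 mg/L and by 0.16 at 2 mg/L, and the latter call ended without control replicate 3 (-0.08) or without replicate 1 (-0.12) or 2 (-0.16) at 2 mg/L.

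The large subunit's most abundant genes all fell at 4 mg/L. L19 (Mve18G003930, chromosome 18, 9407804 to 9411903) was at 2296, 2204 and 2273 CPM in the control, 1562, 1625 and 1683 CPM at 4 mg/L, and 2051, 2093 and 2179 CPM at 2 mg/L. Its libraries at 4 mg/L were far below the others, and those at 2 mg/L were just below the control. The log2 change was -0.48 (SE 0.03) at 4 mg/L and -0.10 (SE 0.03) at 2 mg/L, and the smaller call ended without control replicate 1 (-0.09) or without replicate 1 at 2 mg/L (-0.08). L7a (Mve14G007890) fell by 0.51 and 0.25 at 4 and 2 mg/L, L6 (Mve11G001490) by 0.54 and 0.24, and L13a (Mve05G003230), which in mammals can also leave the ribosome to silence certain messages, by 0.39 and 0.20.

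The genes of L3 and L4, proteins at the working centre of the large subunit, fell at both hypoxic levels to different depths. Only L3 was called higher at 2 than at 4 mg/L. L3, which lies close to the site of peptide bond formation, (Mve01G020490) was at 3010, 2909 and 3011 CPM in the control, 1975, 1938 and 2162 CPM at 4 mg/L, and 2507, 2570 and 2497 CPM at 2 mg/L. The groups did not overlap, and the log2 changes were -0.56 (SE 0.04) and -0.24 (SE 0.04). L4, whose loop lines the exit tunnel of the new protein, was at 2732, 2752 and 2728 CPM in the control, 2266, 2239 and 2351 CPM at 4 mg/L, and 2187, 2277 and 2264 CPM at 2 mg/L. L4 fell by 0.26 and 0.29, and here both hypoxic levels overlapped (log2 difference -0.03, adjusted p = 0.4), although total-count scaling called L4 lower at 2 than at 4 mg/L at -0.16.

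L5 and L11, which carry the 5S ribosomal RNA into the subunit, fell by 0.29 and 0.32 at 4 mg/L and by 0.18 and 0.25 at 2 mg/L. L5 was called higher at 2 than at 4 mg/L by 0.11 with TMM, but that difference was -0.02 with total-count scaling and did not pass. For L11 it did not pass, at 0.07 with TMM and -0.06 with total-count scaling, and without replicate 3 at 4 mg/L it was called higher (0.12).

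The stalk of the large subunit, which recruits translation factors, is built by P0 with the acidic proteins bound to it. P0 (Mve18G004880, chromosome 18, 11845402 to 11853653) was at 2624, 2576 and 2545 CPM in the control, 1819, 1894 and 2024 CPM at 4 mg/L and 2020, 2109 and 2041 CPM at 2 mg/L. Every hypoxic library was below every control library, and the hypoxic levels overlapped. The log2 changes were -0.43 (SE 0.03) and -0.33 (SE 0.03), and the difference between 2 and 4 mg/L was 0.10 with TMM and -0.03 with total-count scaling. Its call under TMM also ended without replicate 1 (0.07) or 2 (0.10) at 4 mg/L, or without replicate 2 at 2 mg/L (0.09). P1 (Mve18G011150) was at 1108, 1164 and 1283 CPM in the control, 859, 843 and 910 CPM at 4 mg/L and 1052, 1109 and 1106 CPM at 2 mg/L. P1 fell by 0.44 at 4 mg/L, and its libraries at 2 mg/L overlapped the lowest control library. The call for P1 at 2 mg/L, -0.12, ended without control replicate 3 (-0.06) or without replicate 1 at 2 mg/L (-0.10), and with median-of-ratios size factors (-0.11).

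S27a and L40 are both made as fusions with ubiquitin, the tag that marks proteins for breakdown, and their calls differed at 2 mg/L, a difference that was not itself tested. S27a (Mve02G017420) was at 687, 672 and 752 CPM in the control, 524, 547 and 571 CPM at 4 mg/L and 557, 574 and 554 CPM at 2 mg/L, and it was low at both levels alike. It fell by 0.36 and 0.33, and its difference between 2 and 4 mg/L did not pass, at 0.04 with TMM and -0.09 with total-count scaling. L40 (Mve07G010280) was at 305, 325 and 365 CPM in the control, 244, 263 and 255 CPM at 4 mg/L and 347, 355 and 338 CPM at 2 mg/L. L40 fell by 0.38 at 4 mg/L and its libraries at 2 mg/L lay within the control range. The change at 2 mg/L was 0.06 with TMM, which did not pass. It was called lower, at -0.14, with total-count scaling, and called higher, at 0.14, without control replicate 3.

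L14 and L37a had the widest return among large subunit genes. L14 (Mve06G007890) was at 583, 561 and 625 CPM in the control, 375, 379 and 406 CPM at 4 mg/L and 526, 572 and 566 CPM at 2 mg/L. L37a (Mve12G011260), a zinc finger protein, was at 111, 90.8 and 101 CPM, then 64.7, 63.7 and 74.9 CPM, then 93.7, 101 and 96.6 CPM. In both genes the libraries at 4 mg/L stood alone and low, and those at 2 mg/L overlapped the control. Both were higher at 2 than at 4 mg/L by 0.52 on the log2 scale (SE 0.05 and 0.08). Against the control L14 was -0.61 and L37a -0.58 at 4 mg/L, and neither change at 2 mg/L passed with TMM (-0.09 and -0.06), while with total-count scaling both did (-0.29 and -0.26).

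S29, a small zinc-binding protein of the small subunit, had the largest difference between the hypoxic levels. S29 (Mve02G017980, chromosome 2, 56962074 to 56964635) was at 16.9, 16.2 and 19.9 CPM in the control, 14.3, 11.6 and 16.7 CPM at 4 mg/L and 22.9, 25.6 and 21.5 CPM at 2 mg/L. The libraries at 2 mg/L were above all the others, and those at 4 mg/L overlapped the control. The log2 difference between 2 and 4 mg/L was 0.72 (SE 0.13, edgeR quasi-likelihood adjusted p = 0.000188). Its changes against the control, -0.32 at 4 mg/L and 0.40 at 2 mg/L, were called with little margin. The first was lost without control replicate 3 (-0.22) or without replicate 2 at 4 mg/L (-0.19) and under 9 other settings. The second was lost without control replicate 2 (0.34), without replicate 2 at 2 mg/L (0.33) and with total-count scaling (0.20).

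L30, a large subunit protein near the interface with the small one, was at 281, 270 and 321 CPM in the control, 229, 251 and 241 CPM at 4 mg/L and 316, 326 and 319 CPM at 2 mg/L. Its libraries at 4 mg/L were lowest and those at 2 mg/L overlapped control replicate 3. L30 fell by 0.27 at 4 mg/L. It was called higher at 2 mg/L by 0.14 with TMM, but lower, at -0.06 and without a call, with total-count scaling, and the call also ended without control replicate 1 (0.12) or 2 (0.09) and without replicate 2 (0.13) or 3 (0.15) at 2 mg/L.

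Of the genes called in no comparison, L36 was at 266, 255 and 291 CPM in the control, 243, 257 and 264 CPM at 4 mg/L and 253, 286 and 270 CPM at 2 mg/L, which overlap throughout, with a log2 change of -0.09 (SE 0.05) at 4 mg/L. With total-count scaling L36 was called lower at both levels, at -0.16 and -0.21. L34 (Mve01G016500) was at 217, 119 and 121 CPM in the control, 166, 156 and 87.7 CPM at 4 mg/L and 117, 119 and 169 CPM at 2 mg/L. In each group 1 library of L34 lay far from the other two, its coefficient of variation of 36.8% in the control was the highest of any member there, and the standard error of its changes was 0.22. L55 (Mve03G016320) was at 2.74, 4.23 and 3.23 CPM, then 4.60, 3.53 and 2.90 CPM, then 4.44, 4.39 and 4.12 CPM, with standard errors of 0.25. L55 met the description rule, but the name is that of a mitochondrial ribosomal protein in animals, and it was the only one of the 62 without the KEGG ribosome annotation. Leaving it out changed no count of calls.

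S6, the small subunit protein phosphorylated by S6 kinase when TOR is active, had 2 genes on chromosome 10 that moved in opposite directions. Mve10G002520 (8968295 to 8976627) was at 2284, 2242 and 2262 CPM in the control, 1136, 1152 and 1218 CPM at 4 mg/L and 1525, 1623 and 1537 CPM at 2 mg/L. Mve10G002420 (8649880 to 8654791) was at 285, 280 and 316 CPM in the control, 595, 585 and 625 CPM at 4 mg/L and 557, 609 and 620 CPM at 2 mg/L. The abundant gene was lowest at 4 mg/L with no overlap between groups, and the lesser gene was far above its control level in all 6 hypoxic libraries.

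The fitted changes of the abundant S6 gene were -0.95 (SE 0.03, adjusted p = 1.36e-13) and -0.53 (SE 0.03), the largest fall of any member at 4 mg/L. Those of the lesser gene were 1.04 (SE 0.05, adjusted p = 1.16e-11) and 1.02 (SE 0.05, adjusted p = 1.96e-11), by edgeR's quasi-likelihood test with Benjamini-Hochberg adjustment. The lesser gene was the only member past a 2-fold change in any comparison. It made up 11.5% ± 0.669 of summed S6 CPM in the control, 34.0% ± 0.367 at 4 mg/L and 27.6% ± 1.03 at 2 mg/L (SD, n = 3). Summed over both genes, S6 was at 2556 ± 30.1, 1770 ± 63.0 and 2157 ± 75 CPM, and counts summed before the fit fell by 0.53 at 4 mg/L and by 0.24 at 2 mg/L. Genes with the same description may share reads, and whether the authors' counting split reads between copies was not tested.

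**Figure D4:**
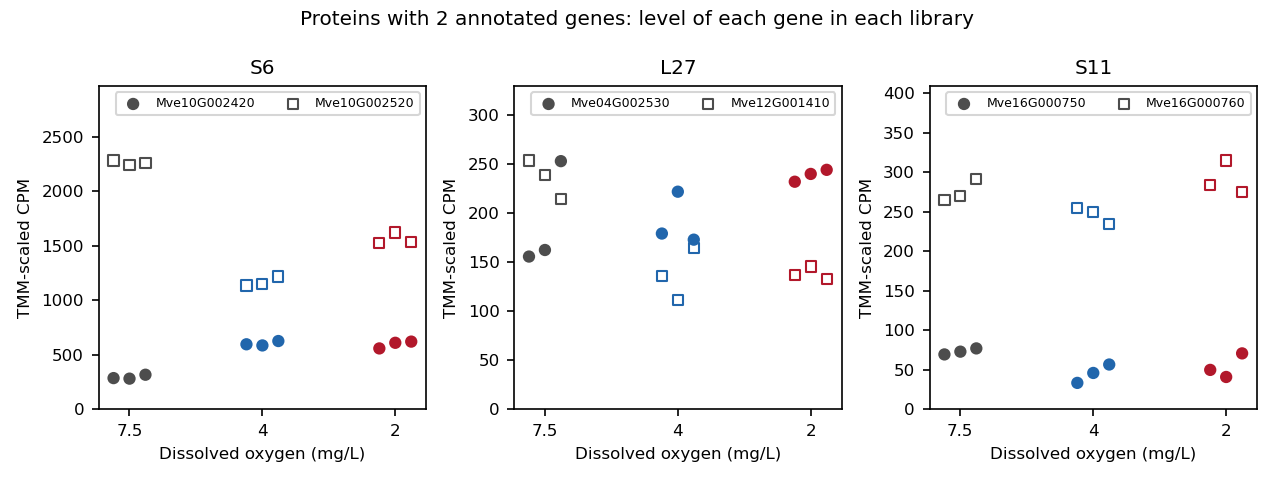
TMM-scaled CPM in each library of both genes of S6, L27 and S11 against dissolved oxygen in mg/L. Filled circles and open squares are the genes named in each panel. In S6 the abundant gene drops from about 2262 to 1169 CPM at 4 mg/L while the other rises from 293 to 602 CPM, and in L27 the chromosome 12 gene falls below the chromosome 4 gene.

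L27, a large subunit protein, had genes on chromosomes 4 and 12 that also differed. Mve12G001410 (chromosome 12, 4483602 to 4487210) was at 254, 239 and 215 CPM in the control, 136, 111 and 164 CPM at 4 mg/L and 137, 146 and 133 CPM at 2 mg/L. Mve04G002530 (chromosome 4, 6820480 to 6820890), whose span of 411 bp was the shortest of the 62, was at 156, 162 and 253 CPM, then 179, 222 and 173 CPM, then 232, 240 and 244 CPM. The chromosome 12 gene was low in all hypoxic libraries, and the chromosome 4 gene overlapped between the control and both hypoxic levels.

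The chromosome 12 gene of L27 fell by 0.78 (SE 0.10) and 0.77 (SE 0.10) on the log2 scale. The chromosome 4 gene did not pass at 4 mg/L (0.01 with TMM, -0.06 with total-count scaling) and was called higher at 2 mg/L by 0.33 (SE 0.13, edgeR quasi-likelihood adjusted p = 0.0424). That call ended with total-count scaling (0.13), with limma on log2(FPKM + 1) or log2(FPKM + 0.1) (0.17 in each), with no expression filter (0.30) and with DESeq2 (0.34). The call also ended without control replicate 1 (0.20) or 2 (0.22), without replicate 1 at 4 mg/L (0.33) and without any single library at 2 mg/L (0.31 to 0.35). Control replicate 3 stood apart from the others for this gene, and without it the gene was called higher at 4 mg/L too (0.27). Its share of summed L27 CPM was 44.2% ± 8.66, 58.3% ± 7.74 and 63.3% ± 1.28. Summed over both genes, L27 fell by 0.38 at 4 mg/L and by 0.18 at 2 mg/L.

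The genes of S11, Mve16G000750 (chromosome 16, 1389312 to 1390463) and Mve16G000760 (1391562 to 1395818), lie 1098 bp apart on the same strand. The first was at 69.2, 72.7 and 76.9 CPM in the control, 33.2, 45.8 and 56.5 CPM at 4 mg/L and 49.6, 40.7 and 70.6 CPM at 2 mg/L. The second was at 265, 270 and 291 CPM, then 255, 250 and 235 CPM, then 284, 315 and 275 CPM. Both were below the control in every library at 4 mg/L, and both overlapped it at 2 mg/L. They fell by 0.69 (SE 0.17) and 0.16 (SE 0.05) at 4 mg/L, and the call of the second ended without control replicate 3 (-0.12) or replicate 3 at 4 mg/L (-0.14). At 2 mg/L the first was called at -0.45, which ended without replicate 2 (-0.28) or 1 (-0.40) at that level, without control replicate 2 (-0.45) or 3 (-0.41) and with DESeq2 (-0.43). The second was at 0.08 with TMM and -0.12 with total-count scaling, and neither passed. Summed, S11 fell by 0.26 at 4 mg/L and stood at -0.02 at 2 mg/L, which did not pass.

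The members were spread over 18 numbered chromosomes, with 9 on chromosome 16, 7 each on chromosomes 1 and 18, and 2 on unplaced contigs. None overlapped another gene of the table. A gene transcribed away from the member started within 300 bp in 11 cases, and 10 of these neighbours were tested. At 4 mg/L 3 of the neighbours fell and 1 rose, where 34.5% of all genes tested fell and 35.4% rose. At 2 mg/L 3 fell and 0 rose, where 32.0% fell and 31.5% rose. The share that fell was thus near that of all genes, and the share that rose was below it at both levels, over only 10 neighbours. NDUFB10, a complex I subunit gene 243 bp from L3, fell from 178 to 143 CPM at 4 mg/L, a log2 change of -0.32 beside -0.56 for L3. The mediator subunit 22 gene 240 bp from L7a had log2 changes of -0.63 and -0.77 at 4 and 2 mg/L, at a level of 13.2 CPM in the control. In contrast, an EDEM-like gene of endoplasmic reticulum protein disposal, 44 bp from S10, rose by 0.64 at 4 mg/L, where S10 fell by 0.36. These neighbours were named after their values were seen.

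The rule also left out 6 ribosomal protein genes whose descriptions write the name as rpl or rps, which were looked at after the table was seen. At 4 mg/L 5 of the 6 fell, where 34.5% of all genes tested fell. At 2 mg/L 2 fell and 1 rose, where 32.0% of all genes fell and 31.5% rose. All 6 were higher at 2 than at 4 mg/L, against 31.6% of all genes. S12 (Mve03G013750) was at 1380 ± 120, 1051 ± 48.2 and 1398 ± 61.9 CPM (SD, n = 3) and fell by 0.39 at 4 mg/L. S21 (Mve03G016660) was the riser, at 13.3 ± 0.187, 13.0 ± 2.34 and 22.3 ± 0.986 CPM, with a log2 change of 0.74 at 2 mg/L. Adding them gave 62 of 68 genes lower at 4 mg/L.

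A further 34 genes with the KEGG ribosome annotation carry other descriptions, many of them hypothetical or uncharacterized proteins. At 4 mg/L 17 of these fell and 6 rose (50.0% and 17.6%, against 34.5% and 35.4% of all genes tested). At 2 mg/L 14 fell and 5 rose (41.2% and 14.7%, against 32.0% and 31.5%). Between the hypoxic levels 17 were higher and 9 lower at 2 mg/L (50.0% and 26.5%, against 31.6% and 32.1%). Those that rose at 4 mg/L include genes described as otopetrin-2, otopetrin-3-like and WD repeat-containing protein 49-like. The annotation may thus take in genes outside the cytosolic ribosome, so these counts cannot be read as those of cytosolic ribosomal proteins alone. The 3 of the 34 named next were chosen after their values were seen. The laminin receptor gene (Mve01G012690), whose product is the small subunit protein SA, was at 3121 ± 19.2, 2116 ± 104 and 2668 ± 25 CPM and fell by 0.56 at 4 mg/L and 0.23 at 2 mg/L. The QM gene (Mve01G013890), which encodes L10, fell by 0.41 and 0.23. The FUBI gene (Mve02G006860), a ubiquitin-like fusion with S30, fell by 0.31 at 4 mg/L. Outside that annotation, RACK1 (Mve01G016370, described as a receptor for activated C kinase), a scaffold protein on the small subunit, was at 2593 ± 62.4, 1835 ± 100 and 2167 ± 65.6 CPM, with log2 changes of -0.50 and -0.26.

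Other parts of the translation machinery were counted with the same fit, on lists matched by words in the descriptions. One list held 7 genes matched by words for partners outside the ribosome whose messages carry the terminal oligopyrimidine motif in mammals. All 7 fell at 4 mg/L, where 34.5% of all genes tested fell and 35.4% rose. At 2 mg/L 5 fell and 1 rose, where 32.0% of all genes fell and 31.5% rose. One of the 7, polyadenylate-binding protein 2, is known as a nuclear protein and was matched by its name alone. Without it 6 of 6 fell at 4 mg/L, and 4 fell and 1 rose at 2 mg/L. Of 6 elongation and termination factors, 4 of which are also among the 7, 4 fell and 2 rose at each hypoxic level (66.7% and 33.3%). At 4 mg/L the 4 that fell were the 4 shared with the 7. Between the hypoxic levels 2 were higher and 2 lower at 2 mg/L (33.3% each, close to 31.6% and 32.1% of all genes tested). The ERF3A-like release factor gene (Mve01G007010) was called higher at 2 mg/L. That call ended with total-count scaling (0.19), among other settings. It also ended without control replicate 1 (0.30) or 2 (0.34) and without replicate 1 (0.37) or 3 (0.33) at 2 mg/L. Elongation factor 2 (Mve10G006750), which moves the ribosome along the message, was at 12720 ± 94.0, 8768 ± 141 and 10588 ± 155 CPM, with log2 changes of -0.54 and -0.26. Elongation factor 1 alpha (Mve18G005250), which delivers transfer RNA, was at 21149 ± 369, 18982 ± 1237 and 18182 ± 144 CPM and fell by 0.16 and 0.22. The nascent polypeptide-associated complex subunit alpha (Mve07G011490) fell by 0.34 at 4 mg/L, and was called higher by 0.11 at 2 mg/L with TMM but stood at -0.09, without a call, with total-count scaling. Polyadenylate-binding protein 4 (Mve18G010670) fell by 0.25 at 4 mg/L. Polyadenylate-binding protein 2 (Mve06G007420) fell by 0.57 and 0.98.

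Initiation factors, which load the ribosome onto the message, rose more often than they fell at 4 mg/L. Of 40 genes, 24 rose (60.0%, against 35.4% of all genes tested) and 2 fell (5%, against 34.5%), with a median log2 change of 0.23. At 2 mg/L 14 rose and 14 fell (35.0% each, close to the 31.5% and 32.0% of all genes), with a median of -0.02. Between the hypoxic levels 27 were lower and 5 higher at 2 mg/L (67.5% and 12.5%, against 32.1% and 31.6% of all genes). The epsilon subunit of eIF2B (Mve09G009770), the exchange factor that recharges eIF2, rose from 4.39 ± 1.17 to 13.5 ± 0.965 CPM at 4 mg/L and 7.31 ± 1.07 CPM at 2 mg/L, log2 changes of 1.61 and 0.73. An eIF5B-like gene (Mve03G011700), of the factor for subunit joining, rose by 1.54 and 1.39. The largest fall was that of eIF5 (Mve02G009240), from 200 ± 12.7 to 85.4 ± 5.04 and 136 ± 1.41 CPM, log2 changes of -1.23 and -0.56.

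**Figure D5:**
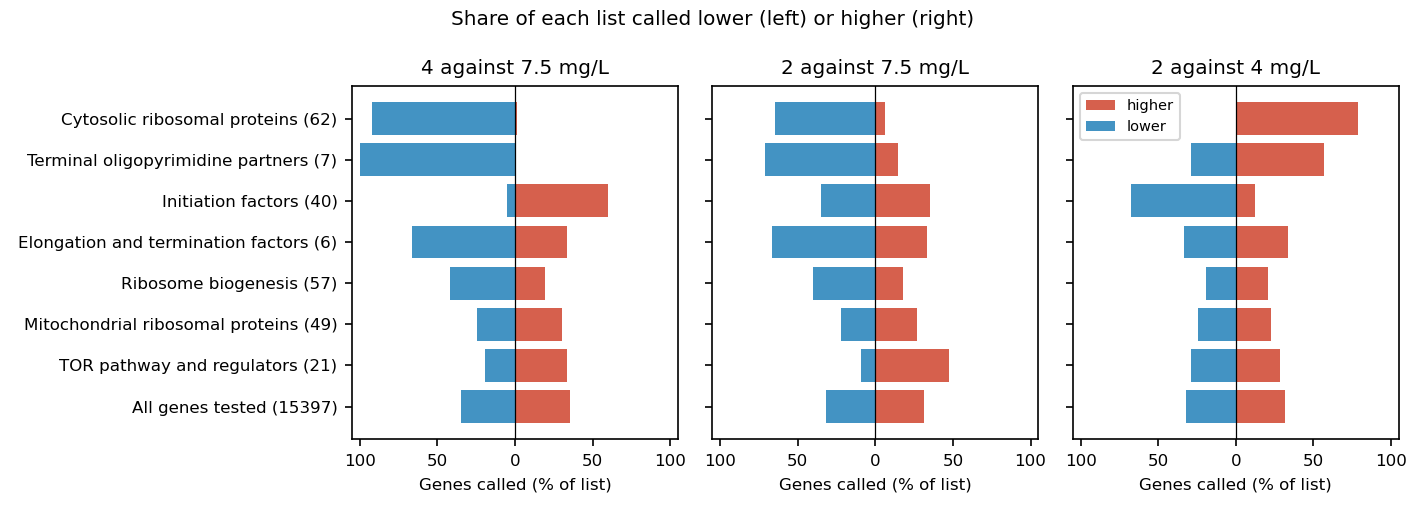
Percentage of each translation list called lower (left of 0, blue) or higher (right of 0, red) in the 3 comparisons, with the number of genes in parentheses and all genes tested at the bottom. At 4 mg/L 91.9% of the ribosomal protein genes are lower while 60.0% of initiation factors are higher. Between 2 and 4 mg/L 79.0% of the former are higher and 67.5% of the latter are lower.

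Genes of ribosome assembly were called in both directions. Of 57 genes, 24 fell and 11 rose at 4 mg/L (42.1% and 19.3%, against 34.5% and 35.4% of all genes tested). At 2 mg/L 23 fell and 10 rose (40.4% and 17.5%, against 32.0% and 31.5%). Between the hypoxic levels 12 were higher and 11 lower at 2 mg/L (21.1% and 19.3%, against 31.6% and 32.1%). IMP3 (Mve14G011080), a part of the U3 particle that processes the small subunit RNA, fell from 14.9 ± 0.658 to 6.54 ± 0.653 and 4.58 ± 0.759 CPM, log2 changes of -1.19 and -1.70. NAF1 (Mve01G005840), which helps to assemble H/ACA particles, fell by 1.48 and 1.01, and NOP9 (Mve06G011320) by 1.13 and 1.31. A ribosome biogenesis regulatory protein homolog (Mve01G004960) rose by 0.66 at 4 mg/L and fell by 1.07 at 2 mg/L. A gene described as subunit B of an RNA polymerase I initiation complex (Mve13G005330) rose by 1.18 and 0.98.

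Proteins of the mitochondrial ribosome were called in both directions at shares below those of all genes. Of 49 genes, 15 rose and 12 fell at 4 mg/L (30.6% and 24.5%, against 35.4% and 34.5% of all genes tested), with a median log2 change of -0.06, and 13 rose and 11 fell at 2 mg/L (26.5% and 22.4%, against 31.5% and 32.0%), with a median of 0.03. The largest change was in S33 (Mve08G007020), from 9.36 ± 0.604 to 1.20 ± 0.288 and 6.57 ± 0.789 CPM, log2 changes of -2.96 and -0.51, the second of which ended without control replicate 1 (-0.52) or 2 (-0.46) or without replicate 2 (-0.50) or 3 (-0.43) at 2 mg/L. L47 (Mve04G007280) rose by 1.13 at 4 mg/L. The difference between the cytosolic and mitochondrial sets was not tested, since both were chosen with results known.

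Among 21 genes matched by words for the TOR pathway and its targets, 7 rose and 4 fell at 4 mg/L (33.3% and 19.05%, against 35.4% and 34.5% of all genes tested). At 2 mg/L 10 rose and 2 fell (47.6% and 9.52%, against 31.5% and 32.0%). Of the 21, 3 match only through the word myc in the name of a binding protein, and the 4E-binding protein gene is also among the initiation factors. The gene described as S6 kinase beta-1 (Mve11G013600), the enzyme that phosphorylates S6, rose from 3.83 ± 0.993 to 18.9 ± 1.69 CPM at 4 mg/L and 13.9 ± 0.423 CPM at 2 mg/L, log2 changes of 2.31 and 1.86. The gene described as S6 kinase alpha-3 (Mve05G013790) is on the list by its name, which does not place it in the TOR pathway. It rose by 2.25 and 2.22 from 1.55 ± 0.410 CPM. Sestrin-1 (Mve05G010100), an inhibitor of TOR under stress in mammals, rose from 41.8 ± 2.2 to 88.5 ± 3.45 and 89.7 ± 5.33 CPM. The mTOR kinase gene (Mve08G013440) was at 50.6 ± 3.26 and 49.3 ± 3.90 CPM at 7.5 and 4 mg/L and fell to 34.2 ± 4.23 CPM at 2 mg/L, a log2 change of -0.56. The 4E-binding protein gene (Mve01G008980) passed in neither comparison with the control. These are messenger RNA levels, and kinase activity and protein synthesis were not measured.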

How the data were processed

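The deposited table holds whole-number counts and FPKM for each gene, both made by the authors, per the file headers. All 18 value columns were used. The submitters' processing notes list cutadapt 1.9, HISAT2 2.2.1 and StringTie 2.1.6, and also DESeq2 and edgeR with no stated role. Neither the build nor the use of strand in counting is given in the sources used here, and coordinates are those of the table. The 15397 genes at or above 1 FPKM on average were tested with edgeR 4.0.16 in R 4.3.3. All 9 libraries entered a quasi-likelihood fit on TMM-scaled counts with 1 coefficient per group, with Benjamini-Hochberg adjustment over all genes tested and a threshold of 0.05. The spread between libraries beyond counting noise was 11.8% (edgeR's common biological coefficient of variation), and it may be technical. Alternatives used DESeq2 1.42.0 and limma 3.58.1.

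Members, lists and tests were chosen with earlier results of these data known. The genes named were the 6 most abundant members, the 3 largest and smallest changes per comparison, members called against the majority, members listed by role, genes with copies, and, of each other list, the 3 largest called changes and listed regulators. S2, S5, S16, S17, S19, S10, L11 and L36, the 6 genes described with rpl or rps, laminin receptor, QM and FUBI were named after their values were seen. A count of 2 occurred more often (2649 values) than a count of 1 (1855) or 3 (1914), so low counts may not be independent fragments. Replicate libraries differed by 5.80 to 8.76 times counting noise (chi-square per degree of freedom), so none was a duplicate. The fit was also run on simulated data with known folds, in which far fewer genes changed than were called here. That run cannot test the choice of scaling.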

Additional observations from a re-analysis of the deposited data

How the results depend on the processing

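Scaling changed most. For 4 against 7.5 mg/L the median change was -0.46 with total counts and -0.45 with limma on log2(FPKM + 1) or log2(FPKM + 0.1), and with copies summed 0 genes rose. For 2 against 7.5 mg/L 1 gene rose with total counts and either limma fit, 2 with no expression filter or copies summed, and the median was -0.37 with total counts and -0.36 with limma. For 2 against 4 mg/L 2 genes were lower and 31 higher with total counts, 2 and 27 with either limma fit, and the median was 0.11 in each. Over all 62 members, total counts and either limma fit turned the direction of 1 gene at 4 against 7.5 mg/L, 6 at 2 against 7.5 mg/L and 13 at 2 against 4 mg/L. Those named in the text, and 1 gene of another list, had these values with total counts, limma + 1 and limma + 0.1, in that order. At 2 against 7.5 mg/L Mve07G010280 (L40) was -0.14, -0.13 and -0.13, Mve07G011490 (alpha subunit of the nascent polypeptide-associated complex) -0.087, -0.082 and -0.083, Mve16G000760 (S11) -0.12 in each, and Mve18G008780 (L30) -0.058, -0.050 and -0.050. At 2 against 4 mg/L Mve02G017420 (S27a) was -0.094, -0.097 and -0.098, Mve12G001410 (L27) -0.11, -0.10 and -0.10, Mve14G006350 (L5) -0.018, -0.023 and -0.023, Mve10G002230 (L36) -0.049, -0.054 and -0.054, Mve18G004470 (L11) -0.062, -0.067 and -0.067, and Mve18G004880 (P0) -0.025, -0.029 and -0.029. At 4 against 7.5 mg/L Mve04G002530 (L27) was -0.062, -0.027 and -0.027, and -0.0055 with no filter. At 2 against 7.5 mg/L Mve10G002230 (L36) was 0.0049 with median-of-ratios size factors or DESeq2 and 7.1e-05 with only the 2 groups compared. The cause was not tested.

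Leaving out 1 library gave 55 to 57 lower and 1 to 2 higher at 4 mg/L (median -0.41 to -0.34), 31 to 41 lower and 1 to 5 higher at 2 mg/L (median -0.18 to -0.12), and 0 lower and 41 to 52 higher for 2 against 4 mg/L. It turned 3, 7 and 4 of the 62 members in these comparisons, and among the named ones Mve01G016500 (L34; -0.32 to 0.19 at 4 mg/L, -0.36 to 0.17 at 2 mg/L, -0.24 to 0.15 between them), Mve03G016320 (L55; -0.082 to 0.30 at 4 mg/L), Mve04G002530 (-0.12 to 0.27 at 4 mg/L), Mve12G011260 (L37a; -0.13 to 0.015 at 2 mg/L), Mve10G002230 (L36; -0.052 to 0.047 at 2 mg/L), Mve16G000100 (S10; -0.054 to 0.047 at 2 mg/L) and, for 2 against 4 mg/L, Mve10G002420 (S6; -0.045 to 0.032), Mve10G007600 (L4; -0.042 to 0.013) and Mve12G001410 (-0.11 to 0.19). Same-numbered libraries did not deviate together (r from -0.03 to 0.01), and the main fit did not pair them. This cannot show what the numbers stand for. With the replicate number as a block, 56 fell and 1 rose at 4 mg/L, 39 fell and 4 rose at 2 mg/L, 47 were higher at 2 than at 4 mg/L, and Mve01G016500 (L34) turned to 0.030.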
